A study of Ovis aries with 32 samples.

Results

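The data describe what changed in cultured fat-cell precursors of female control sheep fetuses (Ovis aries) when the cultures were differentiated. FC denotes preadipocytes isolated from the perirenal fat, the visceral depot around the kidney, of female fetuses from control ewes, and FCD denotes cells of the same kind after adipocyte differentiation in culture. The fetuses came from singleton pregnancies of crossbred Columbia-Rambouillet ewes at term, and the control ewes were kept at an ordinary ambient temperature and pair-fed to a heat-exposed group. Both groups were female and control, so the labelled difference between them was the stage of culture. Each group held 4 libraries of RNA sequencing, numbered 1 to 4, and these 8 libraries are part of a series of 32, in which males (MC and MCD) and growth-restricted fetuses of each sex (MFGR, MFGRD, FFGR and FFGRD) were studied in the same way. The differentiation medium and the number of days in it are not given in the sources used here, and the labels do not say which animal a culture came from. The p-values therefore measure the spread between these libraries, and part of that spread may be technical.

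The members described are the genes whose normalised value, summed over the transcripts of a gene, reached 10 in at least 4 of the 8 libraries. That was 11634 of the 21271 genes in the table. A further 319 genes reached 10 in exactly 3 of the 8 libraries and were not tested, and 302 reached it in exactly 4. A value is a normalised read estimate, scaled so that libraries of different depth can be compared, and 10 units stood for about 7.30 to 14.1 reads in these libraries. Changes are given as the log2 fold change of FCD over FC on the log2(value + 1) scale with the standard error of the fit. A gene was called when its adjusted p (limma with Benjamini-Hochberg adjustment) was below 0.05 and its change exceeded 1.5-fold.

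A preadipocyte is a fibroblast-like cell that lays down collagen and other matrix. In culture it is usually driven to differentiate by a mixture of a glucocorticoid, insulin and an agent that raises cyclic AMP. An early wave of transcription factors is followed by PPARG and CEBPA, which switch on genes for fatty acid uptake, triglyceride synthesis and the coating of the lipid droplet, while contractile and matrix genes are turned down.

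The 8 libraries held about 9820000 to 18550000 reads. In a principal component analysis of the log2 values, the first component took 42.5% of the variance and set FC 2 apart at 150, with the other 7 libraries between -62.7 and 25.2. The second component took 21.7% and placed the 4 FCD libraries between 25.2 and 54.4, with FC 1, 3 and 4 between -69.6 and -46.0 and FC 2 at 10.8. FC 2 also differed in how its values depended on the genomic span of a gene: the slope of log2 value on log10 span was -0.10 in FC 2 and 0.25 in FCD 2, against 0.66 to 0.91 in the other 6. Mitochondrial genes took 5.94% of FCD 2 and 1.29% to 2.57% of the other 7. Results are therefore also given without the 2 libraries numbered 2, a choice made after seeing the data.

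**Figure D1:**
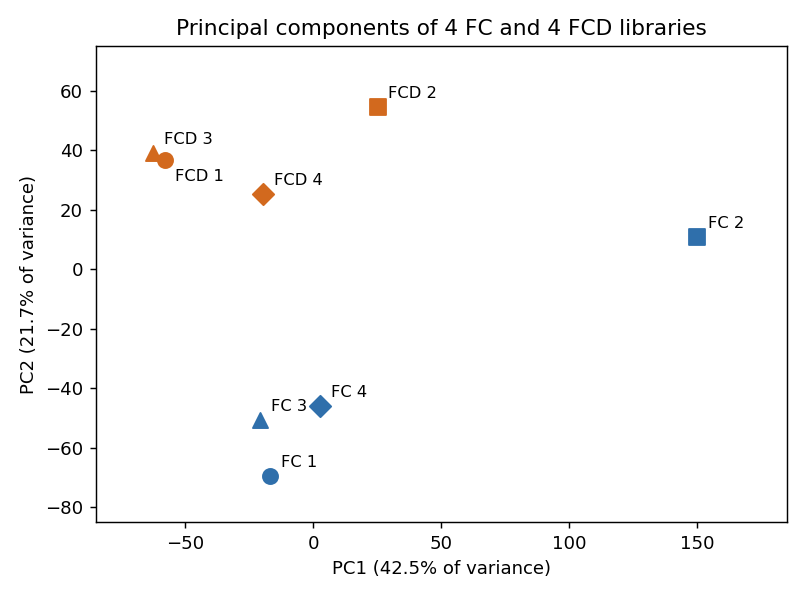
Scores of the 4 FC (blue) and 4 FCD (orange) libraries on the first 2 principal components of log2(value + 1) over 11634 genes, with the share of variance on each axis and the marker shape giving the replicate number. FC 2 stands alone at 150 on PC1, and PC2 separates FCD from FC 1, 3 and 4.

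The labels were checked against marker genes. Adipocyte markers were low in FC and abundant in 3 of the 4 FCD cultures. The summed value of the 7 listed adipocyte markers was 200.1 to 349.7 in FC. In FCD 1, 2 and 3 it was 11637, 9084 and 19891, whereas in FCD 4 it was 406. FABP4, the fatty acid carrier of the adipocyte cytoplasm, read 23.2, 24.4, 2.96 and 1.56 in FC 1 to 4 and 8138, 7555, 13873 and 215 in FCD 1 to 4, so all FCD libraries lay above all FC libraries but FCD 4 was the lowest of them by far. ADIPOQ, which encodes the hormone adiponectin, read 10.9, 23.2, 10.8 and 2.34 in FC and 991, 497, 2356 and 8.59 in FCD. FCD 4 fell inside the FC range for this gene. The same was true of PLIN1, the perilipin that coats mature lipid droplets, at 9.62, 15.3, 28.7 and 21.6 in FC and 795, 354, 1699 and 19.0 in FCD. LEP was not analysed here. The brown-fat uncoupling protein UCP1 was too low to be tested and was listed at 0, 0, 0 and 0 in FC and 31.9, 14.4, 22.5 and 0 in FCD.

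The summed value of the preadipocyte markers was high in both groups, but much of it was collagen. COL3A1 alone read 171110 in FC 2 and 73047 in FCD 2, the libraries with the lowest sums. Other members went both ways without a call. The log2 fold change was -1.75 for ENG, -1.39 for CD34, 0.39 for THY1 and 1.83 for NT5E. The sum of the preadipocyte markers lay between 270960 and 898720 in FC and between 110420 and 905750 in FCD. PDGFRA, a receptor of mesenchymal precursors, read 10574, 2507, 17754 and 12024 in FC and 14050, 1432, 22627 and 10519 in FCD. DLK1, a preadipocyte factor of other species, reached no more than 1.36 in any of the 8 libraries. In cultures such as these, fewer cells of a type and less RNA per cell cannot be told apart. Markers of other lineages were also present. The 8 osteoblast and chondrocyte markers summed to 98.04 to 1397 in FC and 458 to 768 in FCD. The skeletal muscle markers summed to 85.4 to 2307 in FC and 20.4 to 166 in FCD, almost all of it DES, and 4 of those 7 genes, MYOD1, MYF5, MYOG and PAX7, were at 0 in all 8 libraries. The Schwann and neural markers summed to 182 to 445 in FC and 407 to 540.2 in FCD, with 1 of 5 genes reaching 10 in any library and SOX10 at 0 in all 8. The mesothelial markers summed to 3.86 to 393 in FC and 0.704 to 82.9 in FCD, and the epithelial markers to 30.9 to 1860.5 and 7.06 to 83.8. These sums overlap the FC range of the adipocyte sum. Some markers stood out in single libraries. The 8 endothelial markers summed to 14.0 to 81.7 in FC and 16.9 to 287 in FCD, and PECAM1 read 272 in FCD 2 and at most 6.88 elsewhere. The summed macrophage markers reached 943 in FCD 2 against 115 to 243 in the other 7, and KRT8 read 1217 in FC 3 against at most 50.3 in the others. The steroidogenic genes CYP11A1 and STAR read 837 and 509 in FCD 1, against at most 26.0 and 19.2 elsewhere. The part of these markers in the results was not tested.

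Differentiation changed 50 genes past the test. Of these, 21 rose and 29 fell in FCD, which is 0.181% and 0.249% of the genes tested. In all 50, the 4 FC and 4 FCD libraries did not overlap. Over all genes tested, 576 (4.95%) lay higher and 599 (5.15%) lay lower in FCD without overlap, and the median log2 fold change was 0.02. Fitted log2 fold changes ran from 2.64 to 9.41 among the rises and from -1.48 to -4.15 among the falls. Of the 21 rises, 10 were below 10 units in every FC library and entered the test only through FCD, so they had to differ. The named ones were CA13, DOC2B, NR5A2, NRIP3, OXT, PPP1R1A, SORL1 and ZBTB16. Of the 29 falls, 3 (FNDC4, SBSPON and TOX) entered only through FC. For ZBTB16, OXT, PPP1R1A and NR5A2, which were at or near 0 in FC, the fitted value depends on the pseudocount. Same-numbered FC and FCD libraries deviated together, so the replicate number was used as a pairing, which the labels do not state. Whether a shared animal or a shared technical trait lay behind this was not tested. Blocking on the replicate number raised the count to 197 genes, of which 62 (0.533%) rose and 135 (1.16%) fell. Of the 50 genes, 47 were among them. Every ± value of an FCD over FC change is the standard error of the unblocked fit. This holds also where the adjusted p beside it is from the blocked fit. A fit over all 32 libraries called 276 genes for the same contrast, 48 of the 50 among them. Without the 2 libraries numbered 2, 306 genes were called, with all 50 among them.

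The count rested on single libraries. Leaving out FCD 3 left 0 calls, with 932 genes at an unadjusted limma p below 0.05, against 1468 with all libraries. Leaving out FCD 1 left 1 call, FC 1 left 7, FC 4 left 8, FC 3 left 9 and FCD 4 left 26, whereas leaving out FC 2 gave 95 and FCD 2 gave 79.

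**Figure D2:**
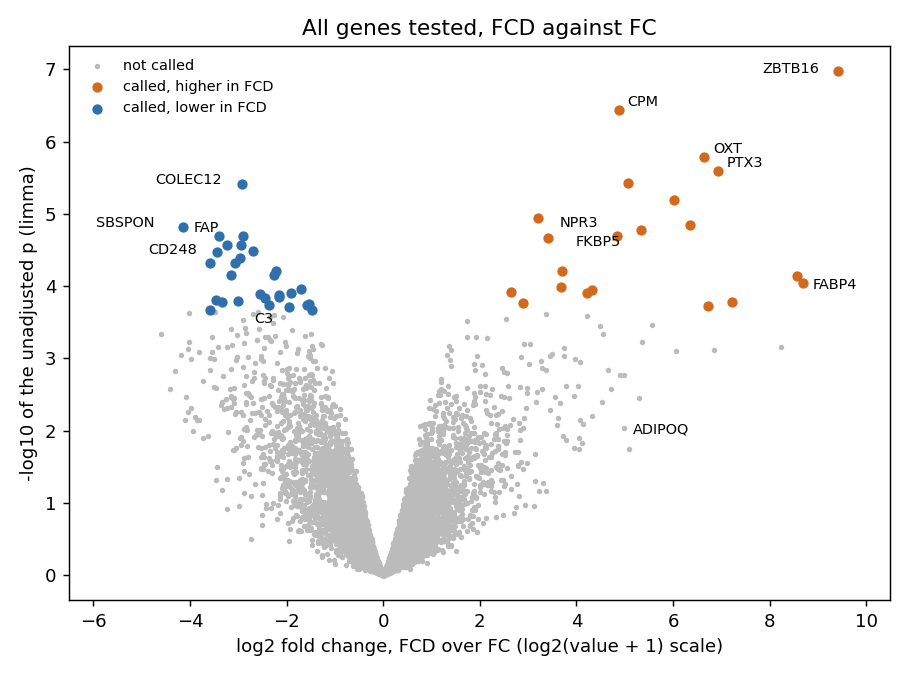
Each point is 1 of the 11634 genes, placed by its log2 fold change (FCD over FC, x axis) and the -log10 of its unadjusted limma p (y axis). The 21 called rises (orange) reach further from 0 than the 29 called falls (blue), and ADIPOQ and C3 lie among the uncalled genes.

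Several genes of the glucocorticoid response rose. Glucocorticoids act through a nuclear receptor that switches on a shared set of genes in most tissues, and 4 of the 26 tested genes of a list of such targets rose and none fell, against rises of 0.181% of all genes. With the replicate block 7 rose, against 0.533%, and without the 2 libraries numbered 2 the count was 8, against 0.70%. Of the 26, 9 lay higher in FCD without overlap, against 4.95% of all genes. Each of these counts includes ZBTB16, which entered the test only through FCD and so had to differ. The median log2 fold change of the list was 1.37, against 0.02 over all genes tested. ZBTB16, a zinc finger transcription factor, read 0, 1.27, 0 and 1.54 in FC 1 to 4 and 1993, 371, 2164 and 779 in FCD 1 to 4. It went from a few reads at most to high values in every FCD culture, FCD 4 included. Because FC was at or below 3 reads, its rise is given as a bound of at least 7.96 on the log2 scale, with each FC library set to 3 reads (limma adjusted p = 0.0012, for a gene that entered the test through FCD alone). FKBP5, a co-chaperone that binds the glucocorticoid receptor complex, read 505, 105, 417 and 436 in FC and 21480, 4118, 21300 and 13800 in FCD. The lowest FCD library, FCD 2, was still above the highest FC library, and the log2 fold change was 5.34 ± 0.66 (SE, limma adjusted p = 0.017).

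PTX3, a secreted pattern recognition protein, read 139.7, 248, 284 and 32.6 in FC and 19278, 10587, 32595 and 10853 in FCD, a log2 fold change of 6.92 ± 0.68 (limma adjusted p = 0.0074). It was the only gene called among the 20 tested of an inflammatory list, against rises of 0.181% of all genes. That list's single rise is thus also a member of the glucocorticoid list. RGS2, which shortens G protein signalling, read 77.8, 183, 66.2 and 155 in FC and 2204, 952, 923 and 1032 in FCD, with FCD 1 above the rest and a log2 fold change of 3.42 ± 0.43. With the block, PER1 (log2 fold change 2.56 ± 0.58, limma adjusted p = 0.043 with the block), CRISPLD2 (2.47 ± 0.55, 0.030) and KLF9 (2.09 ± 0.83, 0.040) were added. PER1 is a clock component and KLF9 a transcription factor. PER1, CRISPLD2 and KLF9 were named after their values were seen, as was every gene below that was called only with the block. PDK4, which restrains the entry of pyruvate into mitochondria, did not pass at 23.4, 5.10, 27.8 and 34.0 in FC and 458, 454, 1182 and 42.3 in FCD, and neither did GLUL, glutamine synthetase, at 151, 1099, 747 and 667 in FC and 1604, 1976, 2648 and 1493 in FCD. In both genes the groups did not overlap. HSD11B1, which regenerates active cortisol inside cells, ran the other way without passing, at 52.1, 74.1, 42.6 and 54.2 in FC and 29.7, 21.1, 22.5 and 5.66 in FCD.

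**Figure D3:**
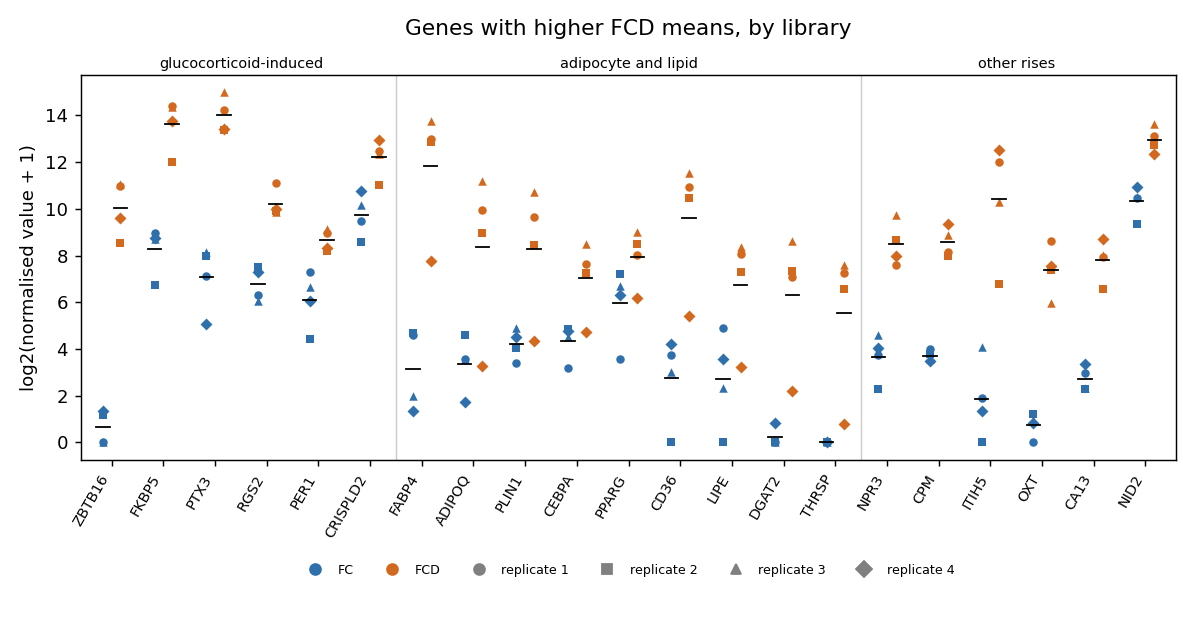
log2(value + 1) of each library (y axis) for genes whose FCD mean was higher, with FC in blue, FCD in orange, marker shapes for the replicate number and bars for the mean of 4 libraries. FCD 4 (orange diamonds) sits with the other FCD libraries for ZBTB16, FKBP5 and PTX3 and near the FC libraries for ADIPOQ, PLIN1, CEBPA, LIPE and THRSP.

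For several genes of lipid storage, FCD 1, 2 and 3 stood far above FC and FCD 4 did not. FABP4 was the only rise called among 16 tested genes of fatty acid uptake and activation, against rises of 0.181% of all genes. Its log2 fold change was 8.70 ± 1.33 (limma adjusted p = 0.038). CD36, a fatty acid transporter of the cell surface, did not pass (limma adjusted p = 0.082, 0.088 with the block), although its groups did not overlap at 12.4, 0, 6.95 and 17.8 in FC and 1973, 1423, 2978 and 41.5 in FCD. The FCD 4 value again stood far below the other FCD values. Of 11 tested lipid droplet proteins, 13 genes of triglyceride synthesis, 16 of fatty acid synthesis and desaturation and 9 adipokines, none was called, with or without the block, and 3, 5, 4 and 1 of them had an unadjusted limma p below 0.05 with a higher FCD mean, as had 5.30% of all genes. Their median log2 fold changes were 0.16, 0.23, 0.18 and -0.12. GPAT3, an enzyme of the first step of triglyceride synthesis, read 46.6, 5.11, 25.8 and 12.4 in FC and 256, 227, 235 and 64.4 in FCD, and its limma adjusted p was 0.091. SCD, the fatty acid desaturase, read 984, 159, 236 and 762 in FC and 3655, 2022, 5245 and 519.8 in FCD, and FASN, fatty acid synthase, read 673, 369.7, 1009.7 and 1527 in FC and 3307, 1852, 3968 and 1269 in FCD. In both genes FCD 4 overlapped FC.

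Among the transcription factors, only ZBTB16 was called of 22 tested, against rises of 0.181% of all genes. KLF9 joined it with the block, against 0.533%. The 2 central regulators did not pass. PPARG read 11.0, 148, 102 and 77.3 in FC and 257, 361, 507 and 72.0 in FCD, a log2 fold change of 1.98 ± 0.85 (limma adjusted p = 0.38). CEBPA read 8.20, 28.2, 21.8 and 26.4 in FC and 198, 152, 359.9 and 25.6 in FCD, a change of 2.69 ± 0.78 (limma adjusted p = 0.19). In both genes FCD 1, 2 and 3 lay above every FC library and FCD 4 lay within the FC range. CEBPB, which acts early in the cascade, read 1136, 1819.5, 1197 and 1072 in FC and 777, 761, 1290.4 and 1541 in FCD, and the groups overlapped. LPL, the lipase that frees fatty acids from circulating lipid, read 144, 35.7, 32.8 and 220.4 in FC and 1242, 148, 1033 and 65.0 in FCD, also with overlap.

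Some adipocyte genes were too low in FC and FCD 4 to enter the test. THRSP, a nuclear protein of lipogenic cells, was listed at 0 in all FC libraries and at 151, 94.4, 191 and 0.724 in FCD. DGAT2, which makes triglyceride, read 0, 0, 0 and 0.774 in FC and 135, 162, 389 and 3.54 in FCD. PLIN4, another droplet coat protein, read 0, 0, 0 and 2.31 in FC and 209, 56.3, 339 and 0.703 in FCD, KLB, the co-receptor of the hormone FGF21, read 2.75, 0, 0.995 and 0 in FC and 231, 111, 512 and 0 in FCD, and CIDEC, a droplet fusion protein, read 0, 3.83, 0.988 and 0 in FC and 15.2, 17.2, 62.9 and 0.709 in FCD. In each of these 5 genes FCD 4 was the lowest FCD library, with values of 0 to 3.54.

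The pattern of FCD 4 was counted over lists. FCD 4 had been singled out by the sum of the 7 adipocyte markers, so their count restates that pattern and adds no support. The lipid droplet list shares PLIN1 with them. Of the 7 adipocyte markers in the table, 5 lay above every FC library in FCD 1, 2 and 3 but not in FCD 4, and in none was FCD 1, FCD 2 or FCD 3 the exception. The corresponding counts for FCD 4 were 4 of 15 lipid droplet proteins, 5 of 19 genes of fatty acid synthesis, 6 of 18 of lipolysis and 2 of 29 glucocorticoid-induced genes. Over all 11634 genes tested, FCD 4 was the exception for 313 genes, FCD 2 for 414, FCD 1 for 152 and FCD 3 for 50. The list counts, unlike these, also include genes too low to be tested. Without FCD 4 the log2 fold change of FABP4 was 10.06, that of ADIPOQ was 6.67 and that of PLIN1 was 5.41.

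The lists of energy metabolism held no call. None of 24 tested genes of fatty acid oxidation, 50 of the respiratory chain, 22 of glycolysis and 7 thermogenic genes was called, with or without the block. Their median log2 fold changes were 0.14, -0.18, -0.0026 and -0.04. For the respiratory chain the range over the 50 genes was -1.04 to 0.52. Over all genes 0.181% rose and 0.249% fell, so the absence of calls in such short lists says little about them. Of 17 thermogenic genes in the table only 7 could be tested. FCD 1, 2 and 3 but not FCD 4 lay above every FC library in 4 of 25 oxidation and 3 of 17 thermogenic genes. That held for 2 of 23 glycolysis and 0 of 54 respiratory chain genes, and for 313 of all 11634 genes tested.

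Genes of peptide and cyclic nucleotide signalling were among the rises. Cyclic AMP and cyclic GMP drive lipolysis in fat cells, and natriuretic peptides act through the second of these. NPR3, the receptor that clears natriuretic peptides, read 12.4, 3.80, 22.9 and 15.4 in FC and 194, 409, 852 and 252 in FCD, a log2 fold change of 4.84 ± 0.61 (limma adjusted p = 0.017). Its signalling counterpart NPR1 read 70.3, 375, 366 and 349 in FC and 510.4, 638, 1778 and 1931 in FCD and did not pass (limma adjusted p = 0.22), although the groups did not overlap. NPR3 was the only call among 32 tested genes of cyclic nucleotide signalling and among 11 of lipolysis, against rises of 0.181% of all genes. With the block, the phosphodiesterases PDE4D (log2 fold change 4.56 ± 0.86) and PDE7B (2.61 ± 0.67), which break down cyclic AMP, were added, against rises of 0.533% of all genes. PDE3B, the phosphodiesterase through which insulin restrains lipolysis, read 123, 45.8, 49.8 and 60.1 in FC and 1268, 492, 2424 and 193 in FCD without passing (limma adjusted p = 0.088, 0.057 with the block). LIPE, the hormone-sensitive lipase, read 28.9, 0, 3.98 and 10.8 in FC and 271, 157, 329 and 8.46 in FCD, with FCD 4 inside the FC range. PPP1R1A, an inhibitor of protein phosphatase 1 that is activated through cyclic AMP, read 0, 0, 0 and 1.55 in FC and 68.9, 46.7, 224 and 57.8 in FCD, a rise of at least 4.26 on the log2 scale against 3 reads in each FC library.

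The remaining rises came from varied classes. OXT, the precursor of the hormone oxytocin, read 0, 1.30, 0.955 and 0.780 in FC and 394, 167, 62.4 and 187 in FCD, a rise of at least 5.30 on the log2 scale against 3 reads (limma adjusted p = 0.0062, for a gene that entered the test through FCD alone). NR5A2, a nuclear receptor also known as LRH-1, was listed at 0 in all 4 FC libraries and read 1913, 53.8, 197 and 22.6 in FCD, so no fold change is given. Its highest value was in FCD 1, the library that carried CYP11A1 and STAR, and the link was not tested. ITIH5, a hyaluronan-binding secreted protein, read 2.75, 0, 15.9 and 1.54 in FC and 4087, 111, 1271 and 5869.9 in FCD. In ITIH5 the highest of all libraries was FCD 4, which had the lowest adipocyte sum of the 4 FCD libraries. CPM, a membrane carboxypeptidase that trims peptides, read 15.1, 12.8, 10.9 and 10.1 in FC and 285, 251, 464 and 643 in FCD, with little spread in either group (log2 fold change 4.87 ± 0.38, limma adjusted p = 0.0021). CA13, a carbonic anhydrase, read 6.83, 3.83, 3.97 and 9.29 in FC and 244, 92.8, 259 and 418 in FCD. SORL1, a sorting receptor of the lipoprotein receptor family, read 0, 0, 0.997 and 5.39 in FC and 126, 60.2, 213 and 345 in FCD. For CPM, CA13 and SORL1, as for ITIH5, FCD 4 was the highest library.

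NID2, which links laminin to collagen IV in basement membranes, rose by 2.64 ± 0.42 from 1413, 658, 1459 and 1979.9 in FC to 9009.9, 6793, 12585 and 5289 in FCD. It was the only call among 28 tested genes of basement membranes and integrins, against rises of 0.181% of all genes. Without the 2 libraries numbered 2, 1 of the 28 rose and 4 fell, against 0.70% and 1.94% of all genes. FGFRL1 (3.20 ± 0.38), a receptor that binds fibroblast growth factors without a kinase, DOC2B (4.21 ± 0.67), a calcium sensor of vesicle fusion, NRIP3 (3.70 ± 0.54) and ABTB2 (3.68 ± 0.57) completed the named rises. The other 3 called rises carried no gene name, and 1 of them was lost with the block. Of 25 tested genes of insulin and IGF signalling, 1 rose and 1 fell with the block, against 0.533% and 1.16% of all genes. They were IGF2 (log2 fold change 5.30 ± 1.37, limma adjusted p = 0.043 with the block) and IGFBP6, an inhibitor of IGF2. IGFBP6 read 14164, 28351, 12938 and 11932 in FC and 512, 7305, 836 and 936 in FCD (log2 fold change -3.59 ± 0.76, limma adjusted p = 0.040 with the block). Outside that list, the block also added GHR, the growth hormone receptor (1.85 ± 0.50, limma adjusted p = 0.041), and PAPPA2, a protease of insulin-like growth factor binding proteins (8.23 ± 1.66, 0.034). PAPPA2 read 1.38, 0, 2.99 and 10.0 in FC and 779, 24.3, 7981 and 5378 in FCD, so its FCD values alone were enough for it to enter the test. ABCG1, a cholesterol exporter, rose with the block as the single call of 27 genes of cholesterol handling, against rises of 0.533% of all genes. ABCG1 read 9.60, 0, 0 and 0 in FC and 127, 103, 212 and 17.6 in FCD. It was below 10 units in every FC library and entered the test only through FCD, so it had to differ.

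The called falls with the largest changes or smallest p are given first. FAP, a protease of activated fibroblasts, read 8533, 11162, 12864 and 10692 in FC and 1200.5, 2293, 1826 and 826 in FCD, a log2 fold change of -2.90 ± 0.37 (limma adjusted p = 0.017). CD248, the stromal surface protein endosialin, read 5041, 5178, 7413 and 5461 in FC and 351, 1316, 582 and 287 in FCD, a change of -3.43 ± 0.46 (limma adjusted p = 0.021). In both genes the 4 FC libraries lay close together and every FCD library was far below them, and FCD 2 was the highest of the FCD libraries. PAMR1, a secreted protein with a peptidase-like domain, fell from 1681, 1907, 2089 and 1635 in FC to 133, 386, 267 and 99.3 in FCD (-3.23 ± 0.42). COLEC12, a scavenger receptor with a collagen-like stalk, had the smallest p of the falls, at 1836, 1585, 1806 and 2366 in FC and 273, 297, 301 and 150 in FCD (log2 fold change -2.93 ± 0.30, limma adjusted p = 0.0076). PTN, a heparin-binding growth factor, read 14075, 23117, 22355 and 22982 in FC and 4747, 3039, 5616 and 5304 in FCD (-2.15 ± 0.34). LTBP3, which anchors latent TGF-beta in the matrix, read 2024, 1123, 2723 and 2189 in FC and 420.2, 481, 436 and 319.8 in FCD (-2.22 ± 0.32). It was the only call of 39 tested genes of TGF-beta, BMP and activin signalling, against falls of 0.249% of all genes. At an unadjusted limma p below 0.05, 9 of the 39 had a lower and 2 a higher FCD mean, against 7.31% and 5.30% of all genes. Without overlap 6 lay lower and 1 higher, against 5.15% and 4.95%. Without the 2 libraries numbered 2, 6 fell and none rose, against 1.94% and 0.70%. SBSPON, a matrix protein with a thrombospondin domain, had the largest fall, from 245, 60.3, 116 and 128 in FC to 4.58, 9.57, 4.28 and 6.40 in FCD (-4.15 ± 0.51).

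Genes of retinoid signalling were among the falls. Retinoic acid made by aldehyde dehydrogenases acts on nuclear receptors and restrains adipogenesis. Of 18 tested genes of this pathway 2 fell and none rose, against falls of 0.249% of all genes, and 3 fell with the block, against 1.16%. By unadjusted limma p below 0.05, 2 had a higher and 5 a lower FCD mean, against 5.30% and 7.31% of all genes. ALDH1A3, which makes retinoic acid, read 246, 298, 179.9 and 375 in FC and 32.7, 63.6, 22.6 and 26.1 in FCD, a log2 fold change of -2.95 ± 0.41 (limma adjusted p = 0.024). RARG, a receptor for it, read 248, 299, 258 and 364 in FC and 56.3, 109, 72.9 and 77.1 in FCD, a change of -1.90 ± 0.30 (limma adjusted p = 0.042). CRABP2, which carries retinoic acid to its receptors, read 559, 418, 101 and 439 in FC and 9.22, 98.3, 6.36 and 44.4 in FCD and passed only with the block (limma adjusted p = 0.13 and 0.048). Other members ran the other way. ALDH1A1, a second enzyme that makes retinoic acid, read 19.2, 77.7, 57.6 and 70.3 in FC and 5619.9, 468, 1795 and 50.8 in FCD and did not pass (log2 fold change 3.79 ± 1.25, limma adjusted p = 0.24), with FCD 4 inside the FC range. In 5 of the 23 genes of the list in the table FCD 1, 2 and 3 lay above every FC library and FCD 4 did not. Over all 11634 genes tested that held for 313. The median log2 fold change of the tested genes of the list was 0.09.

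ACSL5, which activates fatty acids, fell in FCD while FABP4 of the same list rose. ACSL5 read 1554, 795, 983 and 939.9 in FC and 199, 212, 175 and 87.4 in FCD (-2.69 ± 0.36, limma adjusted p = 0.021), whereas ACSL1, its relative of the mature adipocyte, read 268, 210, 335 and 368 in FC and 3192, 1169, 5234 and 259.9 in FCD without passing. FABP3, the carrier of heart and muscle, fell with the block, from 171, 454, 64.1 and 268 in FC to 11.8, 136, 10.4 and 24.9 in FCD (-2.84 ± 0.86, limma adjusted p = 0.043 with the block).

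The other named falls were spread over many functions. They included HDAC9, a histone deacetylase known as a brake on adipocyte differentiation (-3.08 ± 0.43), and TOX, a chromatin protein (-3.34 ± 0.55, limma adjusted p = 0.046, lost with the block at 0.052). CNGA3, a cyclic nucleotide-gated channel subunit (-3.40 ± 0.43), EPB41L3, a link between membrane and cytoskeleton (-3.45 ± 0.56), FNDC4 (-3.59 ± 0.61) and DDAH2 (-3.01 ± 0.49) fell by similar amounts. XPNPEP2, a membrane aminopeptidase (-2.94 ± 0.39), DEF6 (-2.55 ± 0.41), NECAB2 (-2.45 ± 0.40), OPTN, an autophagy receptor (-2.25 ± 0.33), and TOM1L1 (-2.15 ± 0.35, limma adjusted p = 0.045, lost with the block at 0.052) followed. CFAP45, a protein of cilia (-1.95 ± 0.33), ESYT1, a lipid transfer protein at membrane contacts (-1.57 ± 0.26), and YWHAH, a 14-3-3 adaptor (-1.52 ± 0.25), fell least, together with CAST, the inhibitor of calpain proteases. CAST read 7096, 4963, 5762 and 6011 in FC and 1954, 2093, 2228 and 2222 in FCD, so that a small change (-1.48 ± 0.25) stood out from a very narrow spread (limma adjusted p = 0.0498). The other 4 called falls carried no gene name.

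**Figure D4:**
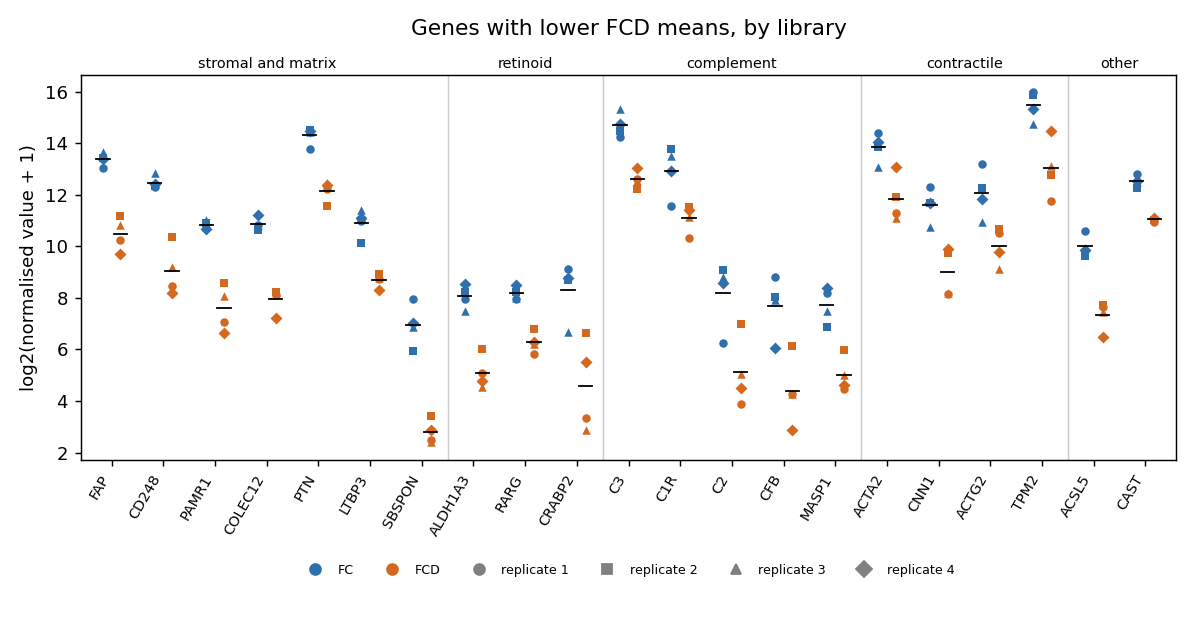
log2(value + 1) of each library (y axis) for genes whose FCD mean was lower, with FC in blue, FCD in orange, marker shapes for the replicate number and bars for the mean of 4 libraries. FAP, CD248, PAMR1, COLEC12, PTN, LTBP3, SBSPON, ALDH1A3, RARG, ACSL5 and CAST passed the test, and CRABP2, the 4 contractile and 5 complement genes did not pass without the replicate block.

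Most complement genes had lower FCD means, without a call in the unblocked fit. The complement cascade is an immune system of secreted proteases that mesenchymal cells also make. Of 9 tested genes, 8 had an unadjusted limma p below 0.05 with a lower FCD mean, against 7.31% of all genes. In 4 the FCD values were lower without overlap, against 5.15% of all genes. With the block 4 of the 9 fell and none rose, against 1.16% of all genes. Without the 2 libraries numbered 2 the count was 2, against 1.94% of all genes. The median log2 fold change was -1.84. C3, the central component, read 19176, 22777, 40785 and 27546 in FC and 6224, 4816, 5991 and 8542 in FCD (log2 fold change -2.08 ± 0.37, limma adjusted p = 0.053, 0.043 with the block). CFB (-3.31 ± 0.77, 0.043 with the block), C2 (-3.08 ± 0.80, 0.041) and C1R (-1.84 ± 0.51, 0.045), proteases of the cascade, were the other 3 falls. C1S, another of these proteases, did not pass (log2 fold change -1.58 ± 0.53, limma adjusted p = 0.085 with the block), and neither did MASP1 (-2.70 ± 0.47, 0.073).

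Contractile genes also lay lower without a call. None of 37 tested genes of the actin cytoskeleton was called. At an unadjusted limma p below 0.05, 15 had a lower FCD mean and none a higher one, against 7.31% and 5.30% of all genes. In 8 the FCD values were lower without overlap, against 5.15% of all genes. With the block 2 fell, against 1.16% of all genes, and without the 2 libraries numbered 2 the count was 5, against 1.94%. The median log2 fold change was -0.93. ACTA2, the smooth muscle actin of myofibroblasts, read 21718, 14686, 8649.6 and 16877 in FC and 2502, 3869, 2179 and 8574 in FCD (-2.00 ± 0.50, limma adjusted p = 0.13). CNN1, a calponin bound to actin, read 5075, 3320.4, 1734 and 3273 in FC and 285, 852, 289.5 and 949 in FCD (limma adjusted p = 0.076, 0.051 with the block). ACTG2 and ACTC1, other muscle actins, fell only with the block (limma adjusted p = 0.036 and 0.044). TAGLN (-1.15 ± 0.46), TPM1 (-1.48 ± 0.51) and ACTB, the common cytoplasmic actin (-0.51 ± 0.45), did not pass in either fit. DES, the muscle intermediate filament protein, fell with the block, from 2306, 871, 80.5 and 590.3 in FC to 100.2, 164, 20.4 and 35.3 in FCD.

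The lists of matrix glycoproteins and of collagens held no call in the unblocked fit. Of 35 tested matrix glycoproteins and crosslinking enzymes none was called. At an unadjusted limma p below 0.05, 15 had a lower FCD mean and 1 a higher one, against 7.31% and 5.30% of all genes. With the block 4 fell, against 1.16% of all genes (3 without the 2 libraries numbered 2, against 1.94%). Those 4 were the elastic fibre and matrix proteins MFAP2 (-2.60 ± 0.80), MFAP4 (-1.89 ± 0.74), FBLN5 (-2.52 ± 0.65) and BGN, the proteoglycan biglycan (-2.07 ± 0.54). POSTN, a matrix protein of wound repair, read 59454, 16669, 5958 and 18322 in FC and 376, 2491, 777 and 2139 in FCD and had a limma adjusted p of 0.077 with and without the block. Among 21 tested collagens none was called. The fibrillar collagens COL1A1 (-0.64 ± 0.93), COL1A2 (-0.64 ± 0.88) and COL3A1 (-0.57 ± 0.79) overlapped between the groups. COL16A1 fell with the block (-2.83 ± 0.75, limma adjusted p = 0.043). COL4A1 and COL4A2, the basement membrane collagens that NID2 binds, had higher, non-overlapping FCD values without passing, at 13116, 2628, 8572 and 17332 in FC and 23619, 23792, 79814 and 22970 in FCD for COL4A1 (1.91 ± 0.67, limma adjusted p = 0.27) and 1.61 ± 0.55 for COL4A2.

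Of 26 tested matrix proteases and their inhibitors none was called and 3 fell with the block, against 1.16% of all genes, among them PLAU, the urokinase (-3.02 ± 0.58), and CTSK, cathepsin K (-1.93 ± 0.46). Of 21 tested preadipocyte and stromal genes none was called. Without the 2 libraries numbered 2, 3 fell and none rose, against 1.94% and 0.70% of all genes. With the block 1 fell, against 1.16% of all genes. SFRP1, a secreted Wnt antagonist, was that gene (-2.19 ± 0.47, limma adjusted p = 0.039). Its relative SFRP2 read 549.8, 1304, 1534 and 2669 in FC and 6512, 1132, 24327 and 17805 in FCD, with overlap. VIM, the mesenchymal intermediate filament protein, read 246800, 427230, 120320 and 150820 in FC and 31920, 139280, 35022 and 56180 in FCD, also with overlap. DPT, dermatopontin, had the largest fall added by the block (-4.30 ± 0.97, limma adjusted p = 0.043).

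Genes of DNA replication and cell division tended to lie higher in FCD, without a call in the unblocked fit. Of 41 tested genes of the cell cycle 13 had an unadjusted limma p below 0.05 with a higher FCD mean and none with a lower one. Over all genes these shares were 5.30% and 7.31%. In 8 the FCD values were higher without overlap, against 4.95% of all genes. The median log2 fold change was 0.84, and without the 2 libraries numbered 2 the count of calls was 1, against rises of 0.70% of all genes. In another 11 of the 41 genes FCD 2, 3 and 4 lay above every FC library and FCD 1 did not, against 152 of all 11634 genes tested. CCND3, a D-type cyclin that is also induced during adipogenesis, read 315, 433, 200 and 252 in FC and 713, 1035, 653 and 724 in FCD and rose with the block alone (1.41 ± 0.31, limma adjusted p = 0.043). MCM2 and MCM4, subunits of the replicative helicase, read 534, 574, 570.1 and 366 in FC and 872, 1169, 1515 and 1154 in FCD for MCM2 and 292, 278, 362 and 246 in FC and 454, 1133, 859 and 676 in FCD for MCM4, and PCNA, the sliding clamp of replication, had a log2 fold change of 0.99 ± 0.29. TOP2A, a topoisomerase of dividing cells, read 2285, 97.9, 1445 and 1106 in FC and 1926, 1144, 5278 and 3215 in FCD, with the FC 2 value far below the rest. ANLN, which acts in cytokinesis, had a log2 fold change of 0.54 ± 0.72 that turned to -0.23 without FC 2.

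Several other lists held no call in the unblocked fit, where 0.181% of all genes rose and 0.249% fell. They were insulin and IGF signalling (25 tested), glycolysis, cholesterol, the Wnt pathway (27), the interferon response (14), heat shock proteins (17), antioxidant defence (27), the circadian clock (14) and the SPRED and Sprouty inhibitors (6). In the interferon list 5 of 14 had an unadjusted limma p below 0.05 with a lower FCD mean and none with a higher one. Over all genes these shares were 7.31% and 5.30%.

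The study assembled a set of 21 genes that change in adipogenesis, chosen partly on these samples, so its behaviour here is not independent evidence of its direction. Of the 21 genes 15 could be tested. The called genes were ZBTB16, FABP4 and FKBP5, all rises. By unadjusted limma p below 0.05, 9 had a higher and 5 a lower FCD mean, against 5.30% and 7.31% of all genes. Among the genes with a lower mean, POSTN, TPM2 (-2.47 ± 0.59), PLS3 (-1.65 ± 0.42), NEXN (-1.92 ± 0.64) and LMO7 (-1.71 ± 0.53) reached that level, and LRRFIP1 (-1.13 ± 0.60) did not. TPM2, PLS3, NEXN and LMO7 are tied to actin filaments. ABCD2, a peroxisomal fatty acid transporter of the set, was untested at 1.37, 1.27, 0 and 1.54 in FC and 40.1, 32.8, 54.8 and 2.11 in FCD, and SPRED3 was untested at 52.3, 12.9, 23.9 and 7.79 in FC and 5.33, 7.69, 1.08 and 0 in FCD.

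The genes called in female control cultures were then read in the other 3 fetal groups, whose libraries were not used to choose them. In each group 48 of the 50 could be tested, and all 48 had the same sign. In male controls (MCD against MC) 45 of the 50 were called in the same direction, where 7.53% of all genes were called. In growth-restricted males (MFGRD against MFGR) 40 were, against 3.38% of all genes, and in growth-restricted females (FFGRD against FFGR) 34 were, against 2.67%. In all 3 groups 28 of the 50 were called. The 45, 40 and 34 genes were 5.15%, 10.2% and 11.0% of the calls of those groups. ZBTB16 had fitted changes of 7.29, 9.65 and 9.35 on the log2 scale in MC, MFGR and FFGR cultures, FKBP5 by 5.01, 5.33 and 5.48, and FABP4 by 11.94, 8.98 and 8.59. The falls of CD248 were -3.30, -3.17 and -2.59, and those of OPTN were -2.01, -2.39 and -2.33. SBSPON and NID2 were called in MFGR but not in MC or FFGR, and YWHAH in FFGR but not in MC or MFGR. No difference between the groups was shown for them. Leaving out MCD 3 gave 29 in place of 45, and leaving out MFGRD 2, 3 or 4 gave 16, 21 and 23 in place of 40. In the FFGR comparison, leaving out any 1 library other than FFGRD 3 gave between 3 and 19 in place of 34.

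**Figure D5:**
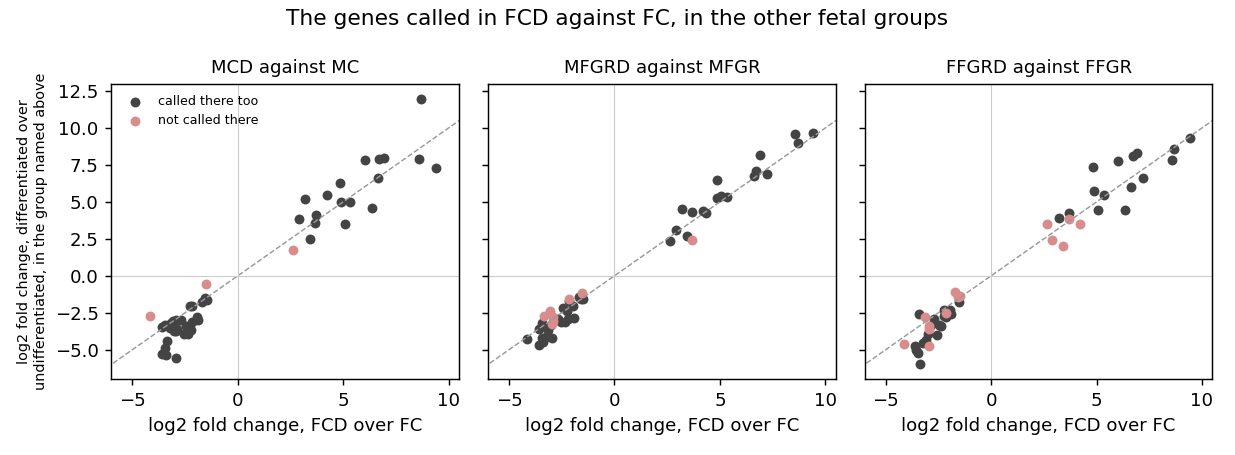
The genes called in FCD against FC, with their log2 fold change in female controls on the x axis and in MC, MFGR or FFGR cultures on the y axis (48 genes in each panel). The dashed line marks equal changes, dark points are genes also called in that group, and all points lie in the quadrants of equal sign.

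Classical adipocyte genes passed in MC cultures where they did not in FC cultures. ADIPOQ changed by 10.33 on the log2 scale in MC, a call, against 4.98 ± 1.52 in FC, PLIN1 by 6.84 against 4.08 ± 1.19, PPARG by 3.62 against 1.98 ± 0.85, and CEBPA by 5.15 against 2.69 ± 0.78. The difference itself was tested. For ADIPOQ the change in FC was lower than that in MC by a log2 difference of -5.36 ± 1.95 (SE, limma adjusted p = 0.88). The difference was -2.46 ± 1.05 for CEBPA, -2.76 ± 1.43 for PLIN1 and -1.64 ± 1.21 for PPARG. The unadjusted p was below 0.05 for ADIPOQ and CEBPA and above it for PLIN1 and PPARG. No gene of 12218 passed the adjusted threshold for a different response between FC and MC cultures (limma interaction term, 211 genes at an unadjusted p below 0.05), and none of 12737 did between FC and the mean of the other 3 groups (48 genes). Of the 50 genes called in FC, 6 and 1 had an unadjusted p below 0.05 in these tests, and the lowest adjusted p was 0.885 and 1.00. With 4 libraries a group, a p that misses the threshold does not show that the responses were alike.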

How the data were processed

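Per the study, RNA was sequenced from FC and FCD cell pellets with 4 libraries a group. The extraction protocol in the labels describes adipose tissue instead. Per the labels, the authors discarded low-quality reads (FastQC 0.11.9 is named in their processing notes), quantified transcripts with Salmon against Ensembl's gene models for the Oar_rambouillet_v1.0 assembly, and normalised the estimates with DESeq2. The deposited values are this normalised signal per transcript, not whole reads. Fold changes and p-values of the authors' own comparisons stand in the same tables and were not used. Strand handling is not given in the sources used here, so overlapping genes cannot be told apart.

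Transcripts were summed per gene, genes whose sum reached 10 in 4 or more of the 8 libraries were kept, and log2(sum + 1) was fitted with limma 3.58.1 (R 4.3.3, empirical Bayes with trend). Such a fold change understates the change of low genes. Calls needed an adjusted p below 0.05 and a fold above 1.5. The script was tested on simulated data with 200 changed genes. Plots were made with matplotlib 3.10.9. The value of 1 read was read from the most common lowest step of each library, and the floor for bounds was 3 reads per library. The step differed between transcripts, so whole reads could not be recovered and no count test was run. The libraries held about 9820000 to 18550000 reads, and the tables give no counting interval.

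Groups and replicate numbers came from the labels. Same-numbered FC and FCD libraries deviated together from their group means, with correlations of 0.32, 0.42, 0.55 and 0.34, and each library correlated best with its own number, so a fit with the replicate number as a block stands beside the unblocked fit where it changed a call. The members and gene lists were chosen with earlier results of these data known. Genes named by rule were the 15 largest called rises and falls with a symbol, up to 4 called members of each list (or its 2 genes with the highest mean where none was called), 17 textbook markers and the study's 21 genes. Every other gene was named after its values were seen. MKI67 was not analysed here. Differences in response between fetal groups were tested as limma interaction terms. Alternatives covered the pseudocount, normalisation, filter, unit of the test, covariates, weights, call rule and each library left out.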

Additional observations from a re-analysis of the deposited data

Results flagged for a closer look

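Within groups of 4 libraries, the highest or lowest value of a gene was compared with the gap to its neighbours (Dixon's criterion at the 95% level). Of 236 groups examined 22 stood out. For normally distributed values of genes chosen beforehand, about 1 in 20 groups would do so. That rate is only a rough guide here, because some genes were named after their values were seen. In FC, ABCG1 and PPP1R1A were above 0 in a single library, which fixes the criterion at its highest value. No explanation was tested.

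In FCD 4, FABP4 read 215 against 7555 to 13873 in the other 3 FCD libraries, GPAT3 read 64.4 against 227 to 256, and COLEC12 read 150.0 against 273 to 301. SFRP1, by contrast, was highest in FCD 4 at 1746, against 496 to 577. In FCD 1, RGS2 was highest at 2204 against 923 to 1032, and CFAP45 was lowest at 47.7 against 68.7 to 72.1. In FCD 3, the basement membrane collagens COL4A1 and COL4A2 read 79814 and 29826, against 22970 to 23792 and 10116 to 12138. In FCD 2, KLF9 read 63.0 against 387 to 538 and COL3A1 read 73047 against 326680 to 435980.

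Among the FC libraries, FC 2 had the lowest COL3A1 at 171110 against 435950 to 506380 and the lowest FKBP5 at 105 against 417 to 505. It had the highest BGN at 6031 against 3290.1 to 3586 and the highest DDAH2 at 7119 against 2503 to 2988. FC 1 was lowest for C1S at 3254 against 10722 to 13055, for NPR1 at 70.3 against 349 to 375 and for PTN at 14075 against 22355 to 23117. It was highest for LRRFIP1 at 14756 against 3146 to 3823, and ABCG1 read 9.60 there and 0 in the other FC libraries. In FC 3, CRABP2 read 101 against 418 to 559. In FC 4, MCM2 read 366 against 534 to 574, and PPP1R1A read 1.55 against 0 in the others, a difference of about 2 reads.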

How the results depend on the processing

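The 50 calls of FCD against FC became 38 to 62 with a pseudocount of 0.1 or 10, quantile or median ratio normalisation, no variance trend, a robust prior or no fold minimum. They became 27 with genes above 0 in 1 library, 28 with a sum of 50 in 4 libraries, 11 with 0.002% of the library sum in 3 libraries, 23 over single transcripts, and 15 with limma's treat at the fold minimum. They became 276 in the 32-library fit, 197 with the replicate block, 1504 with library weights and 414 with the span slope as a covariate. With choices made after seeing the data, they became 306 without both libraries numbered 2 and 731 with the replicate block and the span slope together. Leaving out 1 library gave 0 to 95. The cause of these shifts was not tested. Tests of a different response stayed at 0 calls in all settings run, with 143 to 1002 genes (FC against MC) and 26 to 128 (FC against the other 3) at an unadjusted p below 0.05. The counts of the 50 genes called in the other groups ran from 29 to 40 in MC, 16 to 34 in MFGR and 3 to 28 in FFGR with 1 library left out, and were 47, 47 and 25 with the replicate block. In FFGR the same-numbered libraries correlated at 0.40, -0.49, 0.63 and 0.57, so the numbers did not pair there. MC 2 correlated with MCD 2 at 0.16 and reached 0.25 with an MCD library of another number.

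No called gene named in the text changed sign in any alternative, and over its gene-by-setting values 653 kept the call and 266 lost it. Genes that were not called changed sign in 18 cases. With quantile normalisation the log2 fold change was 0.20 for ACTB, 0.029 for COL1A2, 0.33 for COL3A1 and 0.14 for PDGFRA. With library weights it was 0.0031 for CEBPB and 0.24 for PDGFRA. With 1 library left out, PDGFRA ran from -0.66 (without FC 2) to 0.79 (without FCD 2), ANLN from -0.23 (FC 2) to 1.06 (FC 1), COL1A1 and COL1A2 from -1.25 and -1.23 (FCD 4) to 0.10 and 0.037 (FCD 2), and COL3A1 from -0.93 (FC 2) to 0.0051 (FCD 2). PDGFRA was also positive, at 0.035, 0.28 and 0.10, without FC 1, FC 3 and FC 4. Without both libraries numbered 2 it was -0.37 for ANLN, 0.028 for CEBPB and 0.19 for PDGFRA, and with the block and the span slope 0.057 for PDGFRA. The replicate block changed no named call other than those given with the results. Genes that reached 10 units in fewer than 4 of the 8 libraries were not tested, however high they were in the others.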
